A study of Mus musculus with 12 samples.

Results

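Hippocampal RNA of aged Tg2576 mice was compared between 9 arrays from treated mice, pooled, and 3 arrays from mice given vehicle, and the genes described here are those that moved the same way under each of the 3 treatments. The treated arrays fall into 3 groups of 3: CM-414, which inhibits histone deacetylases (HDACs) and phosphodiesterase 5 (PDE5), CM-695, which acts on HDAC6, class I HDACs and PDE9, and SAHA (vorinostat, an HDAC inhibitor) given together with tadalafil (a PDE5 inhibitor). All mice, vehicle included, were transgenic females aged 16 to 18 months carrying a human APP transgene (amyloid precursor protein, Swedish mutation) under a hamster prion promoter. The labels give B6.Cg-Tg(APPswe)E1-2Dbo/J as the mouse line and call the vehicle saline, while the study's methods give Tg2576 on a C57BL/6/SJL background and a vehicle of saline with DMSO and Tween-20. Treatment ran for 4 weeks, and hippocampi were taken 24 h after its end. The study's methods describe fear conditioning and a water maze in the last weeks of treatment for transgenic mice given CM-695 or vehicle. They do not describe these tests for mice given CM-414 or SAHA and tadalafil. No mice without the transgene were analysed here, and the doses of CM-414, SAHA and tadalafil are not given in the sources used here.

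HDACs take acetyl groups off lysines, the class I enzymes chiefly from histones in the nucleus and HDAC6 from tubulin in the cytoplasm, so that their inhibition leaves chromatin or microtubules more acetylated. PDE5 and PDE9 break down cyclic GMP, a messenger that activates protein kinase G and can lead to phosphorylation of the transcription factor CREB, which many genes of memory formation answer to. In Tg2576 mice amyloid-β builds up in cortex and hippocampus with age, and microglia, the brain's own macrophages, gather at the plaques.

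A gene was taken to move the same way when its probe set (the group of short probes that reads a gene) met both of the following conditions. Its pooled log2 fold change, the mean of the 3 treatment means minus the vehicle mean, had an unadjusted limma p under 0.01, and its groups did not overlap, so that each of the 9 treated arrays lay above, or each below, all 3 vehicle arrays. Of 34785 probe sets with a log2 signal over 4 on all 12 arrays, 220 met both, and 122 of these carry 1 listed gene symbol, for 121 genes out of 19949 tested. Another 13 list several genes and 85 are not listed with a gene, so they are counted but not named. The 121 genes have 9 other tested probe sets, of which 5 had a fold change of the same sign and none an unadjusted limma p under 0.01. Replicates are labelled biological, and the 3 contrasts share the vehicle arrays, so a shared direction among them is not independent evidence.

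The arrays correlated between 0.978 and 0.991 with each other, and array medians lay between 6.34 and 6.41 on the log2 scale. Scores on principal component 1, which held 23.6% of the variance, were from 22.0 to 36.2 for 3 arrays, namely replicate 2 of vehicle, replicate 3 of CM-695 and replicate 1 of SAHA and tadalafil, while the other 9 arrays reached at most 2.10. They are called below the 3 arrays set apart. Of the markers of hippocampal neurons, 14 of 14 dentate granule cell genes and 14 of 15 pyramidal cell genes were over the minimum on every array. The minimum was passed by 34785 of all 41345 probe sets, so these counts cannot show which tissue was taken. Markers of neighbouring tissue were present and uneven: the mean log2 signal of 17 thalamus and habenula genes lay between 6.98 and 7.65 on the vehicle arrays and between 6.99 and 7.66 on the treated arrays, and that of 11 choroid plexus and ependyma genes between 7.43 and 8.27 and between 7.05 and 8.38. The highest thalamus and habenula means stood on vehicle replicate 1 and SAHA and tadalafil replicate 2.

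Across all probe sets, the pooled contrast called 565 at an unadjusted p under 0.01 (1.62% of those tested), 292 higher and 273 lower after treatment. Centring the arrays on their medians gave 347 higher and 205 lower, which moved the share called higher from 51.7% to 62.9%. None of them had a Benjamini-Hochberg adjusted p under 0.05 in limma (2494 had an unadjusted p under 0.05), and the smallest adjusted p was 0.0840, for a probe set with no listed gene. Array weights called 24 and the fit without the 3 arrays set apart called 20 at that adjusted threshold, of which 14 in each case list genes of 1 microRNA family and hold only 2 different sets of values. Of those 24 and 20, 8 and 1 were among the probe sets that also did not overlap, described next. All but 1 of the 565 had a fold change of the same sign in each of the 3 treatments, where 50.0% of all probe sets did. The 565 were chosen by the mean of those 3 fold changes, which share the vehicle arrays. A common sign is therefore largely built into the choice, and the comparison cannot show that the treatments act alike. The 220 that also did not overlap comprised 113 that rose (0.325% of those tested) and 107 that fell (0.308%). Every result below therefore rests on the unadjusted threshold.

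The rises and falls differed in how bright they were. The 113 rises had a median pooled log2 fold change of 0.29 and a median log2 signal of 7.91, and the 107 falls had a median fold change of -0.32 and a median signal of 6.05, against a median signal of 6.74 for all probe sets tested. Among the falls, 51 lay under a log2 signal of 6, as did 19 of the rises and 31.2% of all probe sets. The space between the nearest treated and the nearest vehicle array was narrow for most, with a median of 0.07 and a range of 0.0017 to 0.42 on the log2 scale. The vehicle array nearest to the treated ones was replicate 1 for 74 probe sets, replicate 2 for 67 and replicate 3 for 79, and the nearest treated array was most often CM-695 replicate 3, for 44. At the edge of the threshold, Bloc1s1 and Gpr108 were inside with unadjusted limma p of 0.00969 and 0.00977, and Cul3 and Cobll1 were outside at 0.0101 each.

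**Figure D1:**
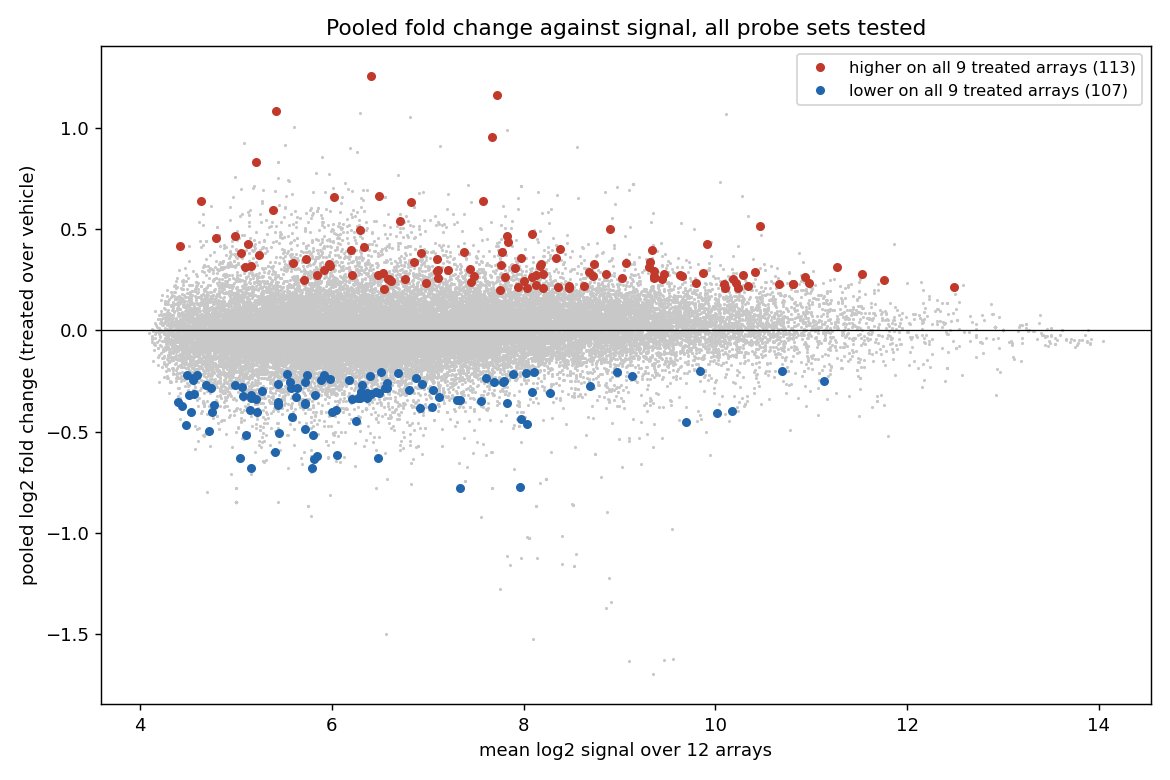
Each grey point is 1 of the 34785 probe sets tested, with its mean log2 signal over the 12 arrays on the x axis and its pooled log2 fold change, treated over vehicle, on the y axis. Red points mark the 113 probe sets higher on all 9 treated arrays and blue points the 107 lower, and the blue points lie more to the left, with a median signal of 6.05 against 7.91.

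Among the receptors and signalling genes that rose, Npy5r, the Y5 receptor of neuropeptide Y, had the largest change of the named rises. Its log2 signals were 6.20, 6.22 and 5.58 on the vehicle arrays, 6.84, 6.40 and 6.77 with CM-414, 6.58, 6.99 and 6.51 with CM-695, and 6.57, 6.51 and 6.78 with SAHA and tadalafil. All 9 treated arrays lay above all vehicle arrays, although vehicle replicate 3 was well below the other two. The pooled log2 fold change was 0.66 (SE 0.16, adjusted p = 0.535 from limma), with 0.67, 0.70 and 0.62 for CM-414, CM-695, and SAHA and tadalafil. Without vehicle replicate 3 it was 0.45 and no longer passed (unadjusted limma p of 0.0107). Npr3, the clearance receptor that takes up natriuretic peptides, whose other receptors make cyclic GMP, read 7.91, 7.68 and 7.60 on vehicle and up to 8.39 on treated arrays, with a median of 8.25 and no overlap. Its fold change was 0.47 (SE 0.08, adjusted p = 0.395 from limma), and it stayed under the threshold whichever array was left out. Gprasp2, which sorts G protein-coupled receptors towards lysosomes, rose from 8.82 ± 0.14 (SD, n = 3) to a treated median of 9.15, a fold change of 0.33, and its other, dim probe set, at a mean of 4.54, had one of -0.05.

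Of the leading rises, 3 encode proteins that act in the nucleus. Hnrnpa3, a protein that binds nascent RNA, read 9.05, 9.06 and 9.01 on the vehicle arrays, close together. The treated arrays read 9.47, 9.38 and 9.64 with CM-414, 9.54, 9.49 and 9.27 with CM-695, and 9.44, 9.40 and 9.35 with SAHA and tadalafil. Every treated value was therefore higher by more than the whole vehicle spread, and the fold change was 0.40 (SE 0.08, adjusted p = 0.395 from limma). Cbx7, a Polycomb protein that reads methylated histone H3, lay between 7.63 and 7.80 on vehicle and between 7.87 and 8.28 on treated arrays, a fold change of 0.36. Zcchc12, a transcriptional coactivator, went from 6.65 ± 0.09 (SD, n = 3) to a treated median of 7.03, a change of 0.38 with a larger error (SE 0.11), and lost its call without vehicle replicate 2, vehicle replicate 3 or CM-695 replicate 2.

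Another 3 leading rises encode enzymes that tag or degrade molecules. Siah1a, a RING ubiquitin ligase that marks proteins for the proteasome, had the smallest p among genes with a single symbol. Its log2 signals were 8.14, 8.02 and 8.08 on the vehicle arrays, 8.60, 8.55 and 8.55 with CM-414, 8.49, 8.42 and 8.42 with CM-695, and 8.52, 8.39 and 8.39 with SAHA and tadalafil. Every treated array stood above the highest vehicle array by more than the vehicle spread, and the fold change was 0.40 (SE 0.06, adjusted p = 0.296 from limma). Gaa, the lysosomal enzyme that degrades glycogen, read 9.52, 9.53 and 9.72 on vehicle and between 9.79 and 10.29 on treated arrays (fold change 0.43, SE 0.09), highest with CM-414. Asah1, the lysosomal acid ceramidase, read 8.22, 7.91 and 8.10 on vehicle and between 8.28 and 8.60 on treated arrays (0.36, SE 0.08). The 2 lysosomal enzymes differ in stability: Gaa kept its call without any 1 array, and Asah1 lost it without vehicle replicate 2 (unadjusted limma p of 0.0103). The remaining leading rises were Cyp4f15, a cytochrome P450 (fold change 0.41), Micu3, a regulator of the mitochondrial calcium uniporter (0.33), and Ccdc81 (0.32).

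Fcrls, an Fc receptor-like gene that marks resident microglia, had the largest fall among named genes. Its log2 signals were 7.90, 8.18 and 7.69 on the vehicle arrays, 7.22, 6.64 and 6.89 with CM-414, 7.34, 6.68 and 7.41 with CM-695, and 7.27, 7.35 and 7.52 with SAHA and tadalafil. The highest treated array was thus below the lowest vehicle array, and the pooled log2 fold change of -0.78 (SE 0.17, adjusted p = 0.535 from limma) amounts to a 1.71-fold lower signal. It was -1.01 with CM-414, -0.78 with CM-695 and -0.54 with SAHA and tadalafil, a gradation that the F test among the treatments did not call (unadjusted limma p of 0.122). Fgr, a Src family kinase of myeloid cells, read 6.07, 5.95 and 5.96 on vehicle and between 5.55 and 5.72 on treated arrays, and its fold change of -0.36 (SE 0.06, adjusted p = 0.395 from limma) had the smallest p among named falls. Olfml3, a secreted glycoprotein that is also a microglial marker, read 7.55, 7.58 and 7.64 on vehicle and between 6.98 and 7.48 on treated arrays. Its fold change of -0.34 (SE 0.11) was near the threshold, and leaving out any of 10 of the 12 arrays in turn took it past 0.01. In whole tissue, fewer cells of a type and less RNA per cell cannot be told apart.

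The brighter of the other leading falls have varied roles. Fgf22, a growth factor that organizes presynaptic terminals in the hippocampus, read 7.73, 8.01 and 7.71 on vehicle and between 7.35 and 7.61 on treated arrays, a fold change of -0.35 (SE 0.09, adjusted p = 0.548 from limma) that lost its call without vehicle replicate 2 (-0.25). Svop, a relative of the synaptic vesicle protein SV2, fell by 0.45 on one probe set, from 6.55, 6.78 and 6.44 to between 5.89 and 6.40. The brighter Svop probe set, at a mean of 8.90, had a fold change of -0.04, so the 2 probe sets of the gene disagree. Cnpy1 read 6.05, 6.07 and 6.08 on vehicle, the tightest vehicle values among the named genes, and between 5.59 and 5.90 on treated arrays (-0.32, SE 0.08). Ccdc182, a coiled-coil protein, read 6.28, 6.30 and 5.99 on vehicle and fell to between 5.41 and 5.92 (-0.51, SE 0.09), by 0.70 with CM-414, 0.30 with CM-695 and 0.54 with SAHA and tadalafil.

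The other leading falls were dim. Vmn2r95, a vomeronasal receptor, had vehicle values of 4.84, 5.21 and 5.22, Btnl5-ps, a pseudogene, had 4.71, 4.68 and 5.09, Cypt2, a gene of sperm, had 4.72, 4.93 and 4.86, and Ccdc89 had 4.80, 4.69 and 4.66; these are close to the filter on low values. Their pooled log2 fold changes were -0.50, -0.47, -0.40 and -0.37. On treated arrays they reached down to 4.30, 4.17, 4.26 and 4.14, just over the minimum of 4. Fndc8 (-0.35) had its vehicle mean raised by replicate 2, at 6.08 against 5.53 and 5.50, and its fold change was -0.16 without that array.

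**Figure D2:**
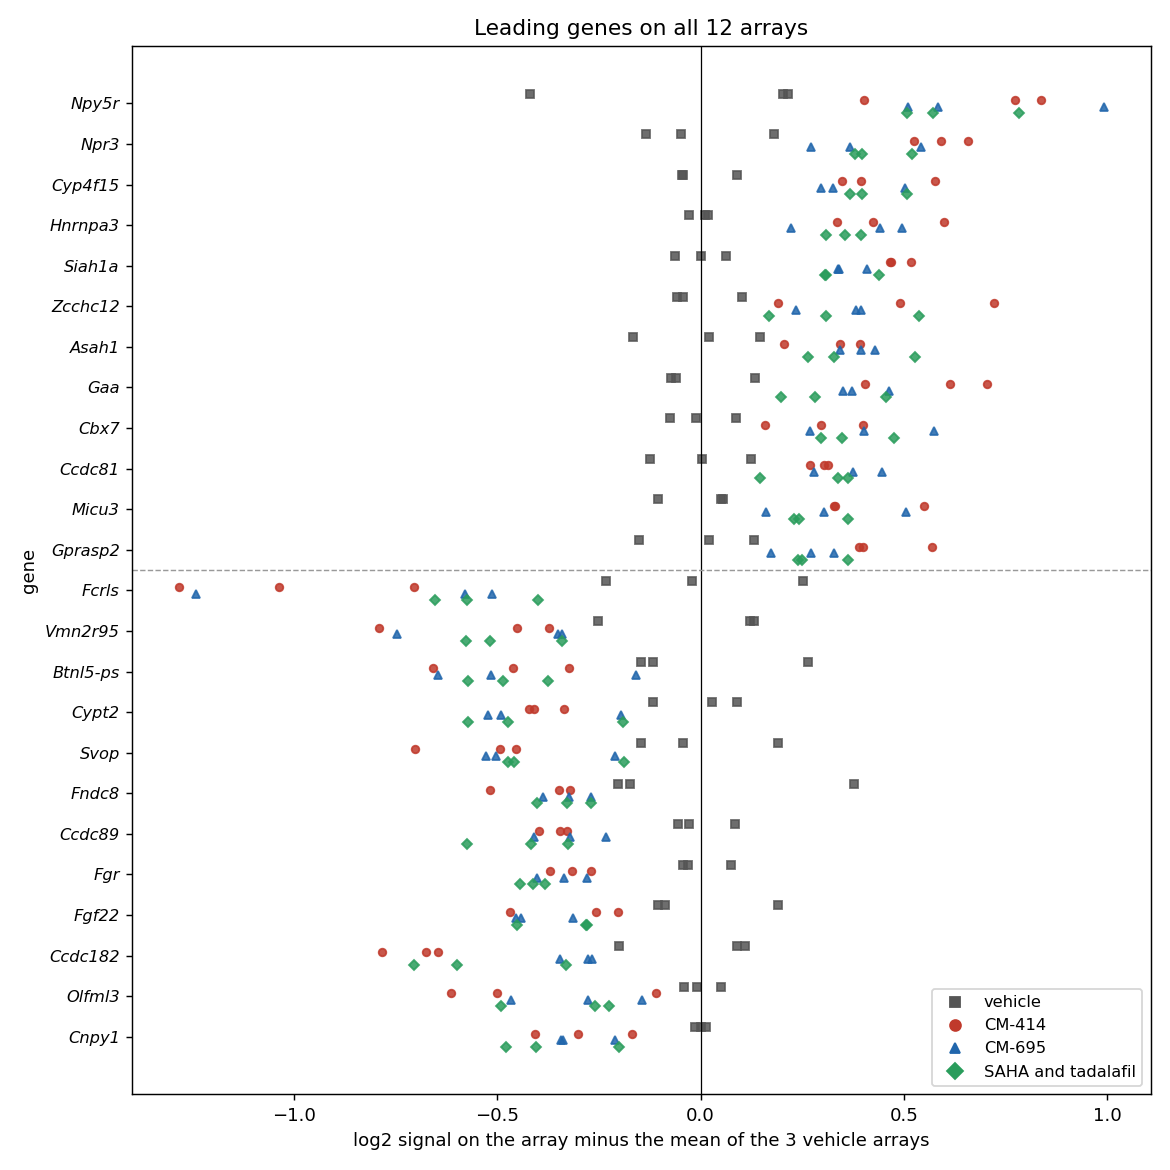
The log2 signal of the 12 leading rises (upper rows) and 12 leading falls (lower rows) on each array is drawn as its difference from the mean of the 3 vehicle arrays, with 1 point for each array and a symbol for each group. For every gene the 9 treated points lie on 1 side of the 3 grey vehicle squares, and the vehicle squares spread most for Npy5r, Fndc8 and Fcrls.

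Among the 220 probe sets the change was largest with CM-414 for 46.8%, with CM-695 for 28.6% and with SAHA and tadalafil for 24.5%, beside 38.8%, 32.0% and 29.2% of all probe sets, and the difference was not tested. The median sizes of the change were 0.33, 0.29 and 0.29 on the log2 scale. Taken singly, 132, 107 and 89 of the 220 had an unadjusted limma p under 0.01 with CM-414, CM-695, and SAHA and tadalafil. Only 28 had it in each treatment. Over all probe sets the shares were 2.5%, 1.41% and 1.15%, but the 220 were chosen by the mean of the 3 changes. Of the 24 leading genes, 11 kept an unadjusted p under 0.01 whichever array was left out: Npr3, Cyp4f15, Hnrnpa3, Siah1a, Gaa, Cbx7, Fcrls, Ccdc89, Fgr, Ccdc182 and Cnpy1. Another 11 lost it without 1 to 3 of the arrays, and 13 of those 14 losses came from leaving out a vehicle array. The other 2, Fndc8 and Olfml3, lost it without any 1 of 10 arrays. Without the 3 arrays set apart, 103 of the 220 were still at an unadjusted p under 0.01.

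To show what lies before the genes that moved together, windows of 250 bases before to 50 after the start of transcription were taken from RefSeq for the build GRCm38.p6. They were available for 89 of the 121 genes and 19 of the 24 leading genes. Some genes have several windows and each was counted, which gave 57 windows for 48 rises and 49 for 41 falls. Short motifs of 4 kinds were searched on both strands: the cyclic AMP response element TGACGTCA, which CREB binds, its half-site TGACG, which every full element contains, the E box CACGTG and the GC box GGGCGG. A GC box was in 70.2% of 57 windows of rises, 30.6% of 49 windows of falls, 50.4% of windows of all tested genes and 35.7% of all promoter windows. This share moves with signal: among tested genes it was 58.3% at or over a log2 signal of 6 and 23.7% under it, and at or over 6 it was 72.7% in rises and 43.8% in falls. The CREB half-site was in 36.8% of windows of rises, 28.6% of falls, 25.7% of tested genes and 20.8% of all, and the full element in 3.51%, 6.12%, 2.46% and 1.79%, which for rises and falls is 2 and 3 windows. The E box was in 15.8% of rises, 8.16% of falls, 8.55% of tested genes and 7.15% of all. These shares also moved with signal. At or over a log2 signal of 6, the half-site was in 38.2% of rises, 34.4% of falls and 28.7% of tested genes. The E box was there in 16.4%, 9.38% and 9.36%. Under 6, the half-site was in 15.4% and the E box in 5.81% of tested genes. A match is a description of the letters, not a binding site.

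The windows of 3 leading rises and 2 leading falls are shown as examples of how the matches differ between genes. They are written 5′ to 3′ on the gene's strand, in lower case, with capitals marking a match to any of the motifs. The Npy5r window (chr8:66688045-66688344, minus strand) holds an E box, the Hnrnpa3 window (chr2:75659009-75659308, plus strand) holds a CREB half-site, an E box and 3 GC boxes, and the Siah1a window (chr8:86745957-86746256, minus strand) holds 4 GC boxes. The Fcrls window (chr3:87263475-87263774, minus strand) holds none of the motifs, and the Fgr window (chr4:132973845-132974144, plus strand) holds none either. Other leading falls do: of all 11 windows of leading falls, 3 hold a GC box, 1 an E box and 0 a CREB half-site. Of the 9 windows of leading rises, 6 hold a GC box, 3 an E box and 5 a half-site.
Npy5r: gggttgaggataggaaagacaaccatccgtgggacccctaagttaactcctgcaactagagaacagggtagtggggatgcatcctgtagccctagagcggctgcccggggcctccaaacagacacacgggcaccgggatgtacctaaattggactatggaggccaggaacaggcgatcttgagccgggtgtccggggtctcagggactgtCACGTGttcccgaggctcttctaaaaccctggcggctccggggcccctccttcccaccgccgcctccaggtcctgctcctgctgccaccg
Hnrnpa3: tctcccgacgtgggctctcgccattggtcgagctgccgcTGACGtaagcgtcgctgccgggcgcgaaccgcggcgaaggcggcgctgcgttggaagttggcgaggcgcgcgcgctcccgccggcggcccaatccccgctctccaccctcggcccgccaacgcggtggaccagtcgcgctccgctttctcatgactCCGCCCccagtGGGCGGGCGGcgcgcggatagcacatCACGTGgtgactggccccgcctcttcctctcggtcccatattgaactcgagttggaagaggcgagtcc
Siah1a: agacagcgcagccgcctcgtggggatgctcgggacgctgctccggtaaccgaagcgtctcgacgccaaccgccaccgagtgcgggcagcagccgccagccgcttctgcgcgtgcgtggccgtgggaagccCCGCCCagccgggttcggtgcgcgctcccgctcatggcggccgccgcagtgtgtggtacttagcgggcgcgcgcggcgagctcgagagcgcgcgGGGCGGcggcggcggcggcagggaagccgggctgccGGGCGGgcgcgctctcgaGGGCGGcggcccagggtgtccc
Fcrls: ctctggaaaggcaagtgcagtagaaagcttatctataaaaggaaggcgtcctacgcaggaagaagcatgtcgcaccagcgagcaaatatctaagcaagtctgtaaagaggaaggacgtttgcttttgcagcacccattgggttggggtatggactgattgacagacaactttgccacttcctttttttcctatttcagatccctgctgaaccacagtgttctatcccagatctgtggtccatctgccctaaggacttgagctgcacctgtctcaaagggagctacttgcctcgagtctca
Fgr: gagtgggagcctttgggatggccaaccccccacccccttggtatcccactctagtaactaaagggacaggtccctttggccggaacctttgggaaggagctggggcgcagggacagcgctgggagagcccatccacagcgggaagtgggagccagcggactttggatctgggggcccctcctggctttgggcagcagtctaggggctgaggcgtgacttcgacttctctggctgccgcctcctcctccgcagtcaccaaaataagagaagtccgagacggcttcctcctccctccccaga
Siah1a, with the narrowest error among the leading rises, had the most GC-rich of the leading windows at 77.7% G or C, and Npy5r and Hnrnpa3 had 61.7% and 70.3%. Fcrls and Fgr had 48.0% and 62.7%. The median was 61.7% over the windows of rises, 53.0% over those of falls and 57.7% over those of tested genes.

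Named groups of genes were read next against all genes, each gene by its brightest probe set. Over 19949 genes, 0.722% rose and 0.597% fell at an unadjusted limma p under 0.01, 26.5% had positive and 24.2% negative fold changes in each of the 3 treatments, and 0.742% lay higher and 0.571% lower on all 9 treated arrays without overlap. The median pooled log2 fold change of all genes was 0.005. Without the 3 arrays set apart, 207 of the 19949 genes rose and 199 fell. In that fit 5502 were positive and 4904 negative in each treatment, and counts quoted from it below stand beside these. A limma F test among the 3 treatments, described below, called 204 of the 19949 genes at an unadjusted p under 0.01.

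Genes for subunits of the proteasome, the complex that degrades ubiquitin-tagged proteins, shifted by a like amount under the 3 treatments. Of 30 measured, 19 had positive and 3 negative fold changes in each treatment, 2 rose, none fell, and the list's median was 0.10 (0.08 with CM-414, 0.10 with CM-695 and 0.09 with SAHA and tadalafil). The mean log2 signal over the 30 genes was 8.77, 8.73 and 8.74 on the vehicle arrays and between 8.81 and 8.87 on the treated arrays, so the groups did not overlap. Psma2, of the proteasome core, read 8.96, 8.76 and 8.69 on vehicle and between 8.81 and 9.33 on treated arrays, a fold change of 0.35 (SE 0.10, adjusted p = 0.591 from limma) that lost its call without vehicle replicate 2 or 3. Psmd14, the lid subunit that cuts ubiquitin off substrates, read 7.98, 8.09 and 8.08 on vehicle and between 8.17 and 8.34 on treated arrays, without overlap (0.21, SE 0.06), and lost its call without any 1 of 5 arrays. Psmc2 and Psma6 also did not overlap, at 0.14 and 0.11, but did not pass the test. Without the 3 arrays set apart, 20 were positive and 4 negative in each treatment, 1 rose, the median was 0.10, and the list's mean was still lower on the remaining vehicle arrays (8.74 and 8.77) than on every treated one (8.81 at the lowest). Among ubiquitin-conjugating enzymes, 1 of 25 rose, Ube2d3 (0.21), with 0.28 for CM-414, 0.23 for CM-695 and 0.12 for SAHA and tadalafil. Among autophagy genes 1 of 24 rose, Atg3 (0.28), which conjugates LC3 to lipid. Both were without overlap, and lost their calls without any 1 of 3 arrays for Ube2d3 and without vehicle replicate 3 for Atg3.

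Genes of RNA binding and splicing had 11 of 20 positive and none negative in each treatment, with a median of 0.12, of which Rbm39, a splicing coactivator, rose (0.22, SE 0.07) but lost its call without any 1 of 10 arrays. This list did overlap between groups: its mean was 9.59, 9.69 and 9.71 on vehicle, and the treated arrays with values as low as those were CM-695 replicate 3 and all 3 SAHA and tadalafil arrays, from 9.59 to 9.71. The CM-414 arrays lay between 9.80 and 9.88. Without vehicle replicate 2 the list's median was 0.06.

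Markers of homeostatic microglia had negative fold changes in each treatment for 9 of 13 genes and positive ones for none. Only Fcrls and Olfml3 passed the test, and for the rest the values were small: Csf1r, the receptor that microglia need to survive, had -0.14, P2ry12, a nucleotide receptor, -0.15, and Tmem119 -0.003. The median was -0.13, with -0.25 for CM-414, -0.09 for CM-695 and -0.05 for SAHA and tadalafil. The mean over the list lay between 7.72 and 7.92 on vehicle and between 7.45 and 7.80 on treated arrays, so it overlapped. The median was -0.07 without vehicle replicate 1 and -0.20 without vehicle replicate 2. Without the 3 arrays set apart, 6 were negative in each treatment, 1 fell and the median was -0.17. Genes of plaque-associated microglia had 11 negative and 3 positive of 25 in each treatment, with none passing the test and a median of -0.07, which was -0.01 without vehicle replicate 1.

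**Figure D3:**
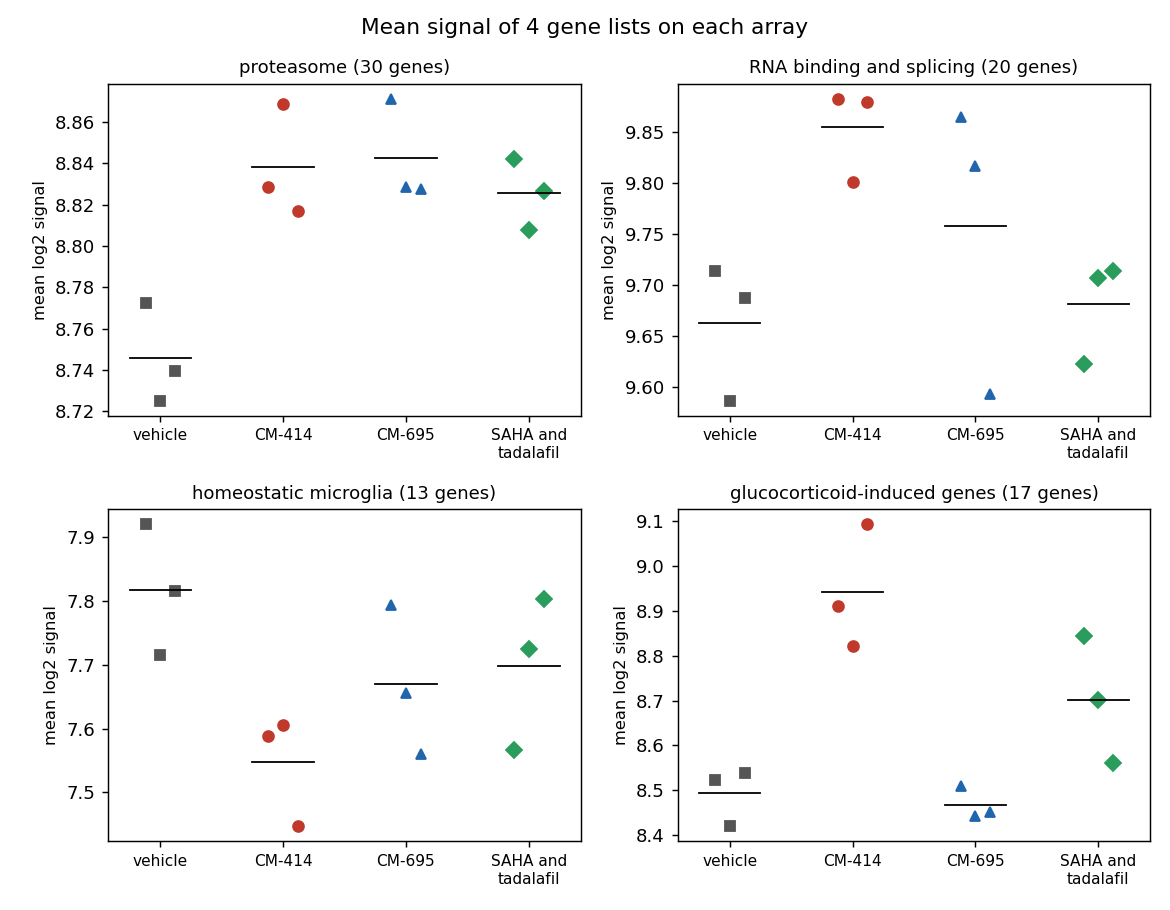
Each point is the mean log2 signal of a gene list on 1 array, for 30 proteasome, 20 RNA binding and splicing, 13 homeostatic microglia and 17 glucocorticoid-induced genes, with groups on the x axis and a bar at each group's mean. Only in the proteasome panel do all 9 treated arrays lie on 1 side of the vehicle arrays, from 8.81 to 8.87 against 8.73 to 8.77.

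Type I interferon response genes, which antiviral signalling switches on, were negative in each treatment for 9 of 17 and positive for 2, with a median of -0.13. Irf9, a subunit of the interferon-activated transcription factor, read 8.08, 7.73 and 7.95 on vehicle and between 7.38 and 7.84 on treated arrays (-0.32, SE 0.09, adjusted p = 0.591 from limma), and Trim30a fell by 0.31. Irf9 lost its call without any 1 of 8 arrays and Trim30a without any 1 of 11. The list's mean was 6.81 on vehicle replicate 1 and 6.59 on both other vehicle arrays. Without vehicle replicate 1 the median was 0.008, so the sign of the list turned with that array.

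Immediate early and CREB target genes, which neuronal activity induces within minutes, were negative in each treatment for 10 of 22 and positive for 1, Bdnf. Arc, which acts at active synapses, fell: it read 10.29, 9.83 and 10.31 on vehicle, 9.85, 9.49 and 9.70 with CM-414, 9.80, 9.79 and 10.29 with CM-695 and 9.41, 9.33 and 9.61 with SAHA and tadalafil. The fold change was -0.45 (SE 0.14, adjusted p = 0.606 from limma), and CM-414 replicate 1 and CM-695 replicate 3 lay within the vehicle range. The call was lost without any 1 of 8 arrays. Egr2, Egr1 and Fosb, inducible transcription factors, had -0.39, -0.35 and -0.31 and did not pass. The list's median was -0.08, and -0.04 without vehicle replicate 3. Without the 3 arrays set apart it was -0.21, and 15 of 22 were negative in each treatment and 3 fell. In that fit 4904 of all 19949 genes were negative in each treatment and 199 fell. The mean log2 signal of the list lay between 8.16 and 8.42 on vehicle and between 7.98 and 8.43 on treated arrays.

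Thalamus and habenula markers, of tissue next to the hippocampus, were negative in each treatment for 9 of 17 and positive for 3, with a median of -0.20. Gbx2, a homeobox gene of the thalamus, fell without overlap from 6.60, 6.57 and 6.54 to between 6.19 and 6.45 (-0.23). The other Gbx2 probe set, at a mean of 6.09, had a fold change of -0.09 and did not pass. Tac1, a neuropeptide precursor, rose (0.44). Gbx2 lost its call without any 1 of 6 arrays and Tac1 without any 1 of 9. All 17 were over the minimum on every array, and Prkcd and Tcf7l2 had -0.52 and -0.60 without passing. Without vehicle replicate 1, whose mean over the list was 7.65, the median was -0.05. The part that uneven dissection has in any other result was not tested.

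The other neuronal and glial lists held at most 2 genes that passed the pooled test. Crh, the corticotropin-releasing hormone of hippocampal interneurons, rose without overlap from 6.36, 6.23 and 6.25 to between 6.41 and 6.66 (0.27, SE 0.06, adjusted p = 0.535 from limma). Its fold change was 0.14 with CM-414, 0.37 with CM-695 and 0.31 with SAHA and tadalafil. Shank3, a scaffold of excitatory postsynapses, fell without overlap from 10.01, 9.96 and 9.99 to between 9.70 and 9.89 (-0.20, SE 0.06). The other Shank3 probe set, at a mean of 6.24, had -0.08 and did not pass. S100b, of astrocytes, and Olig1 and Enpp6, of the oligodendrocyte lineage, fell by 0.32, 0.29 and 0.51, each with overlap. Without the CM-414 arrays the fold change of Olig1 was -0.15, and the F test among the treatments called this gene. That test called 3 of 12 oligodendrocyte precursor and 3 of 14 myelin genes, beside 204 of all 19949. Slco1a4, a transporter of brain endothelium, Slc7a5, an amino acid transporter and target of ATF4, and Atp5a1, a subunit of the mitochondrial ATP synthase, rose by 0.38, 0.32 and 0.23 with overlap. The call was lost without any 1 of 9 arrays for Shank3, 8 for S100b, 5 for Olig1, 8 for Enpp6, 2 for Slc7a5 and 11 for Atp5a1, and without vehicle replicate 2 for Slco1a4. Of 12 oligodendrocyte precursor genes 2 fell, of 16 astrocyte genes 1 fell and of 16 neuropeptide genes 2 rose. In each of the other lists of this paragraph no more than 1 member passed.

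**Figure D4:**
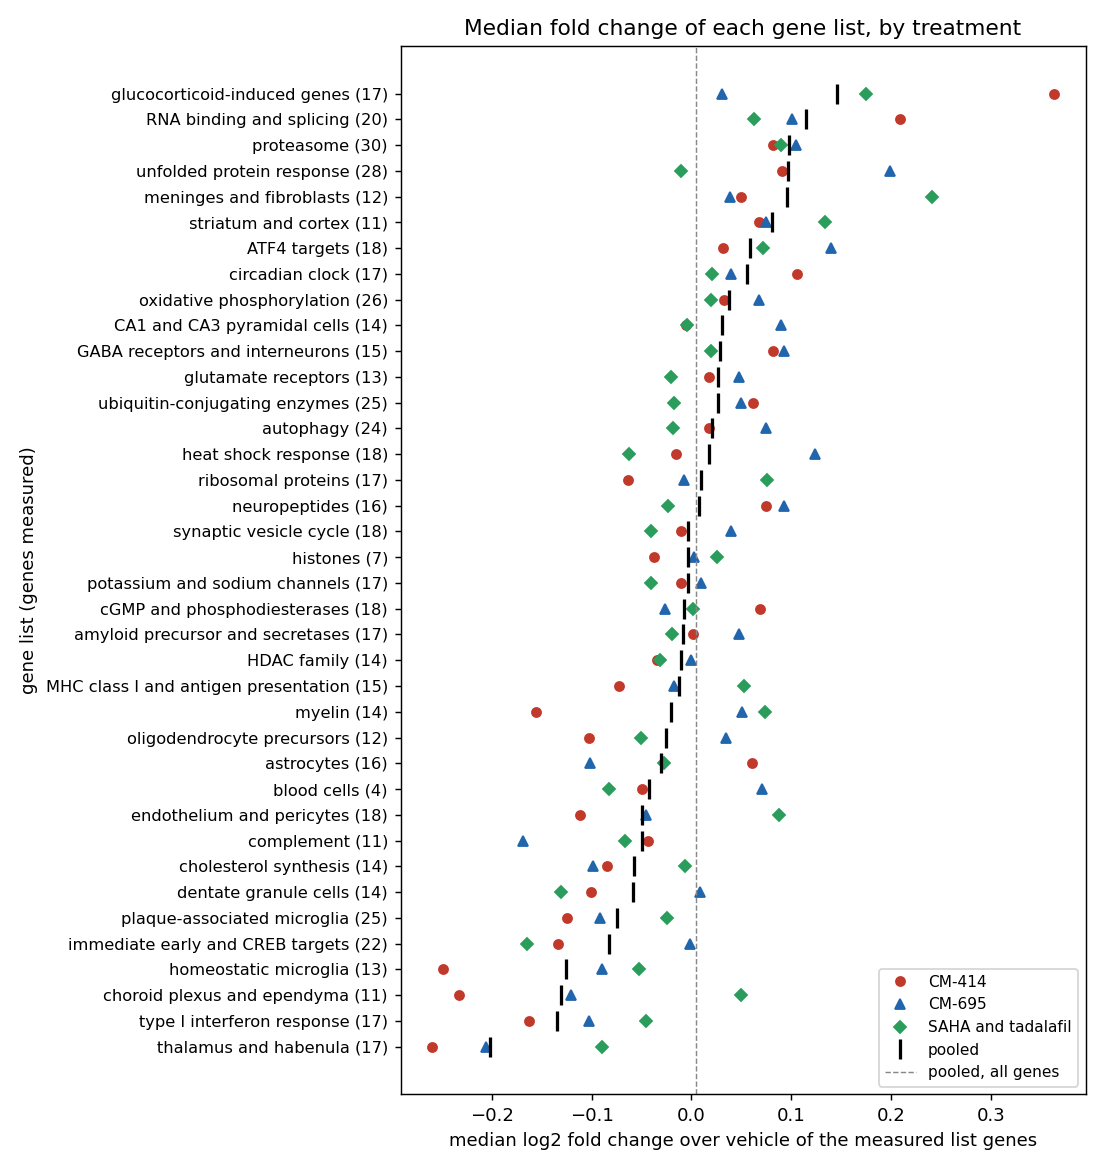
Each row is 1 of the 38 gene lists, with the number of genes measured in brackets and, on the x axis, the median log2 fold change over vehicle of its genes with CM-414 (red circles), CM-695 (blue triangles), SAHA and tadalafil (green diamonds) and pooled (black bars). The dashed line at 0.005 is the pooled median of all genes, and in the proteasome row the symbols of the 3 treatments lie close together to the right of it.

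The drugs' own targets, App and the chaperones Hspa5, Hspa1a and Hspa1b did not pass the pooled test. Hdac1, Hdac2, Hdac3 and Hdac6 had pooled log2 fold changes of -0.01, 0.05, 0.11 and -0.07 (SE 0.13, 0.07, 0.08 and 0.07), Pde5a and Pde9a of 0.06 and 0.07 (SE 0.09 and 0.07), and App, whose mouse gene the probes were designed to read and which cannot be told apart here from the human transgene, of 0.04 (SE 0.06). Of 14 genes of the HDAC family, 2 were positive and 5 negative in each treatment, and of 18 genes of cyclic GMP signalling and phosphodiesterases, 5 and 4. Neither list had a member that passed. Hspa5, the chaperone BiP of the endoplasmic reticulum, had 0.10 (SE 0.09), and Hspa1a and Hspa1b, the inducible Hsp70 genes, had 0.07 and 0.21 (SE 0.09 and 0.13).

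Those chaperones were among the genes on which the treatments parted, by a limma F test of the 3 treatment means against each other. This test does not use the vehicle mean, although the vehicle arrays enter its estimate of spread. It called 497 probe sets at an unadjusted p under 0.01 (1.43% of those tested) and none after adjustment, with a smallest adjusted p of 0.400 and 2380 at an unadjusted p under 0.05. Of the 220 that moved the same way it called 3, all of them rises, of which 1 was Ciart and the others are not listed with a gene. The doses of CM-414, SAHA and tadalafil not being known here, the values are given side by side. Hspa5 read 9.08, 8.75 and 8.80 on vehicle, 9.11, 8.93 and 8.96 with CM-414, 9.43, 9.13 and 9.34 with CM-695 and 8.62, 8.55 and 8.71 with SAHA and tadalafil. All CM-695 arrays were above, and all SAHA and tadalafil arrays below, every vehicle array, which gave log2 fold changes of 0.42 and -0.25 that offset each other in the pooled mean. Among 28 genes of the unfolded protein response, 10 were positive and 3 negative in each treatment, none passed the pooled test, and 5 were called by the F test, with medians of 0.09, 0.20 and -0.01 for CM-414, CM-695, and SAHA and tadalafil. The list's pooled median was 0.10, and 0.03 without vehicle replicate 2. Hspa1a had 0.06, 0.34 and -0.18 and Hspa1b 0.28, 0.49 and -0.14 in the same order.

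Glucocorticoid-induced genes, which the stress hormone receptor switches on, parted in another order. Of 17 measured, 4 rose in the pooled contrast, the most of any list, 9 were positive and none negative in each treatment, and 8 were called by the F test. That test called 204 of all 19949 genes. The list's medians were 0.36 with CM-414, 0.03 with CM-695 and 0.18 with SAHA and tadalafil, and its mean log2 signal lay between 8.82 and 9.09 with CM-414, 8.44 and 8.51 with CM-695, 8.56 and 8.84 with SAHA and tadalafil, and 8.42 and 8.54 on vehicle. The CM-695 arrays thus overlapped with vehicle, and the arrays of the other treatments lay above it. Sgk1, a kinase that regulates ion transport, read 8.78, 8.17 and 8.57 on vehicle, 9.42, 9.60 and 9.55 with CM-414, 8.67, 8.48 and 8.71 with CM-695 and 8.97, 9.14 and 9.02 with SAHA and tadalafil. Its pooled fold change of 0.55 (SE 0.11, adjusted p = 0.395 from limma) averages 1.02, 0.11 and 0.53. Hif3a, a hypoxia-inducible factor subunit, had 0.77, 0.09 and 0.60, and Sult1a1, a sulfotransferase, had 0.95, 0.19 and 0.47. Plin4, of lipid droplets, had 0.50, 0.09 and 0.31. Without the 3 arrays set apart, 3 of the list rose, 4 were positive in each treatment and the median was 0.08. Hif3a lost its call without vehicle replicate 1 or 3, and Sult1a1 without vehicle replicate 1 or 2. Ciart, a repressor of the circadian clock and the 1 clock gene that rose, had 0.66, 0.17 and 0.57 and lay above vehicle on all 9 treated arrays.

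**Figure D5:**
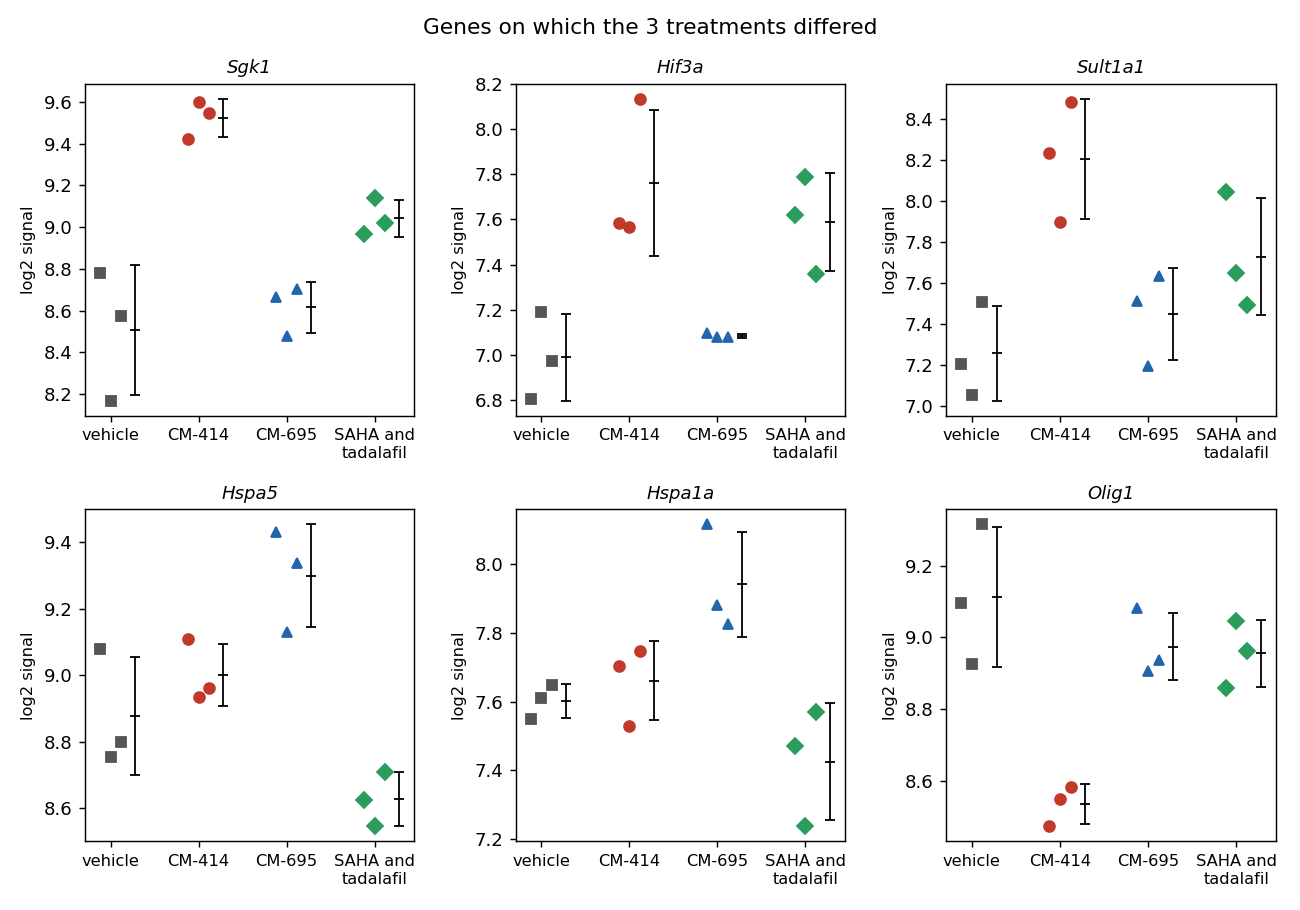
The log2 signal of 6 genes is plotted for each array of the 4 groups, with the mean and its SD (n = 3) as a bar beside the points. Sgk1, Hif3a and Sult1a1 were highest with CM-414 and near vehicle with CM-695, Hspa5 and Hspa1a were highest with CM-695 and lowest with SAHA and tadalafil, and Olig1 was lowest with CM-414.

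The genes with the smallest p of that F test held others on which the treatments parted. Olfr1411, an olfactory receptor gene, read 7.42, 7.44 and 7.42 with CM-695 and between 7.82 and 8.04 on the other 9 arrays, so its pooled value of -0.20 came mostly from 1 treatment. H2-Q4, an MHC class I gene of a family of close relatives that probes may not separate, had -0.07, -0.57 and 0.23. Its other probe set, at a mean of 5.57, had -0.15, -0.04 and -0.13, so the probe sets of the gene disagree. Fat3, a large cadherin, had -0.44, 0.05 and 0.03. Zfand4 had 0.63, 0.03 and 0.44, the same order as the glucocorticoid-induced genes.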

How the data were processed

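RNA from hippocampus of 12 transgenic mice, 3 in each of 4 groups, was hybridized to Affymetrix Mouse Gene 2.0 ST arrays. The authors normalized the arrays by RMA, and the deposited values are log2 signals for 41345 probe sets. Probe sets with a log2 signal over 4 on all 12 arrays were kept (34785, with 6560 removed), and 12 columns were used, 0 being set aside. Of those kept, 21155 had 1 gene symbol in the platform annotation, 1567 had several and 12063 were not listed. The number of arrays limits the precision.

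A model with 4 group means was fitted to all probe sets in limma 3.58.1 (R 4.3.3), with Benjamini-Hochberg adjustment over all of them. The contrasts were the mean of the 3 treatments minus vehicle, each treatment minus vehicle, and an F test (2 degrees of freedom) among the treatments. Each p-value sets a mean difference against the spread between mice within groups. This spread is pooled over the 4 groups and moderated by limma across all probe sets. The same fitting code was run on simulated data with independent noise for each probe set and array. That run lacks the shared differences between arrays seen here, so it cannot show how reliable the calls are. For lists, a gene was read by its brightest probe set. The lists hold 695 different genes, of which 623 were measured. Figures were drawn with matplotlib 3.10.9.

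The named genes were the 12 rises and 12 falls with a single, non-systematic symbol whose smallest change among the treatments was largest in size, 10 targets and study genes, up to 3 members of each of the 38 lists at an unadjusted p under 0.01, and the 6 genes with the smallest F test p, 61 in all. Other genes named were chosen after their values were seen. The members and lists were chosen with earlier results of these data known. Filters, normalization, model settings, whole treatments and single arrays were varied in 29 alternative settings. Same-numbered arrays of different groups were compared in 18 pairs, whose deviations correlated between -0.35 and 0.16, with 4 over 0.1, so the numbers were not taken to pair the mice.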

Additional observations from a re-analysis of the deposited data

Results flagged for a closer look

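The treatments differed from each other, by the limma F test of their 3 means, at an unadjusted p under 0.01 in 13 of the 61 named genes. Over all genes, each read by its brightest probe set, the F test called 204 of 19949. Many of the named genes were chosen for a small p, so these shares cannot be compared. None of the named genes had an adjusted p under 0.05, the smallest over all probe sets being 0.400. The unadjusted limma p was 0.000148 for Sgk1, 0.00752 for Ciart, 0.00408 for Hif3a and 0.00673 for Sult1a1, all highest with CM-414. It was 0.000292 for Hspa5, 0.00230 for Hspa1a and 0.00860 for Hspa1b, all highest with CM-695. It was 0.00493 for Ccn3, a secreted matrix protein whose log2 fold changes were 0.60 with CM-414, 0.29 with CM-695 and 0.11 with SAHA and tadalafil, and 0.00212 for Olig1, lowest with CM-414. Zfand4 had 0.000321, Olfr1411 5.99e-05, Fat3 0.000159 and H2-Q4 6.89e-05, and these genes, with Sgk1 and Hspa5, were chosen for that p.

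Hdac6 read 8.37 on SAHA and tadalafil replicate 2, far above the other treated arrays, whose median with it was 8.13. It was the 1 gene of 61 with such an array among the 9 treated ones, and chance gives about 1 in 20.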

How the results depend on the processing

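Because the 220 probe sets were chosen for groups that do not overlap, their sign cannot turn when arrays are left out. No named gene that was called turned sign. The median turned sign in at least 1 setting for 24 of the 38 lists, and the fold change for 6 of the 61 named genes, none of them called, such as Hspa5 (-0.06 to 0.27). The 565 probe sets at an unadjusted limma p under 0.01 became 289 without the CM-414 arrays, 1106 with array weights and 1036 without the 3 arrays set apart, and 437 to 893 when 1 array was left out, the highest without CM-695 replicate 3. At an adjusted p under 0.05 the count of 0 became 24 with array weights, 20 without the 3 arrays and 0 to 2 without 1 array (2 without vehicle replicate 2, 1 each without CM-695 replicate 3 or SAHA and tadalafil replicate 3). The smallest adjusted p lay between 0.0085 and 0.644 over the settings. The 220 became 458 without the CM-695 arrays, 434 without the SAHA and tadalafil arrays and 839 without the 3 arrays, and 197 to 584 without 1 array (374, 584 and 363 without vehicle replicates 1, 2 and 3, and 409 without CM-695 replicate 3). Fewer arrays make it easier by construction for groups not to overlap. The F test's 497 became 1005 with array weights, 1006 without the 3 arrays, 329 over listed genes, where fewer probe sets are tested, and 364 to 642 without 1 array. The cause of the other differences was not tested.

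With the replicate number as a block, 459 probe sets were called, 175 moved the same way, the F test called 404 and none passed adjustment. Of the 12 arrays, 3 correlated best with arrays of their own number.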

Other observations

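Of the groups not described so far, cholesterol synthesis, complement and meninges had no member at an unadjusted limma p under 0.01. Cholesterol synthesis genes were negative in each treatment for 7 of 14 and positive for 2, with a median log2 fold change of -0.06 (-0.02 without vehicle replicate 3). Complement genes were negative for 6 of 11 and positive for 1, with a median of -0.05 (-0.16 without vehicle replicate 2). Markers of meninges and fibroblasts, tissue at the edge of the dissection, were positive for 7 of 12 and negative for 1, with a median of 0.10 (0.007 without vehicle replicate 3 and 0.19 without vehicle replicate 1), and their mean log2 signal lay between 7.03 and 7.40 on vehicle and between 7.01 and 7.74 on treated arrays. Among ATF4 targets 8 of 18 were positive and none negative in each treatment, with Slc7a5 the 1 that rose.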
